A study of Mus musculus with 2 samples.

Results

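The transcripts described here are those of 35 genes that build the cell-cell junctions of epithelia: 22 tight junction genes, 5 adherens junction genes and 8 desmosome genes. They were chosen by gene symbol for their known function, out of 18193 genes named by the array annotation. Epithelial cells seal the space between them with tight junctions, in which claudins and MARVEL proteins (occludin and its relatives) span the membrane and scaffolds such as ZO-1 tie them to actin. Adherens junctions below hold cells together through cadherins and catenins, also anchored to actin. Desmosomes join desmosomal cadherins through plakoglobin, plakophilins and plakins to keratin filaments. In the gut the claudin makeup sets which ions and water pass between cells, and it differs between crypt and villus and along the bowel.

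RNA came from small-intestinal crypts of 2 groups of mice. The knockout mice carried floxed Lpcat3 alleles and the Villin-CreERT2 transgene (Lpcat3F/F, Villin-CreERT2), in which the villin promoter drives a tamoxifen-activated Cre recombinase in the gut epithelium, and the control mice carried the floxed alleles without Cre (Lpcat3 F/F). Lpcat3 encodes an acyltransferase that loads phospholipids of the membrane with polyunsaturated acyl chains. Animals of both groups, aged 8 to 10 weeks, were given intraperitoneal tamoxifen (1 mg daily over 5 days), and crypts were collected 2 weeks after it.

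The RNA of 5 mice was combined per group and hybridised to a single Affymetrix array, so n = 1 per group and no statistical test between the groups exists. Effects of Lpcat3 loss, of the Cre transgene, of the pooled animals and of the array itself cannot be told apart. Median probe-set signal was 90.5 in the knockout pool and 95.4 in the control pool. A floor of 92.9, the middle of all values, marked signals too low to compare, and 11496 genes exceeded it in either pool. The error of a log2 ratio, taken from the disagreement between the 2 brightest probe sets of a gene, had an SD of 0.28 (4582 genes), 0.33 over the 1983 genes with a signal below 1000 and 0.19 over the 14 junction genes with at least 2 such probe sets. The probe error of 0.28 stands as the error of every log2 ratio below, except where that of genes below a signal of 1000 is named. It leaves out the spread between mice and pools and any difference between the arrays that both probe sets of a gene share. Lpcat3 itself had a signal of 928 in the knockout pool and 4691 in the control pool, 5.06-fold lower.

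Most junction transcripts had nearly the same signal in both pools. Of the 35 genes, 28 exceeded the floor in both pools, and 25 of these 28 lay within 1.5-fold. Cldn4, a claudin that tightens the junction, was 1.84-fold higher in the knockout pool. Evpl, the plakin envoplakin, was 2.06-fold lower and the claudin gene Cldn8 1.73-fold lower. Each of these 3 was read by 1 probe set only. Of all genes measured, 4.76% passed 1.5-fold upward and 8.74% passed it downward in the knockout pool, so 1 and 2 of 28 are shares near or below that background. At 2-fold, 1.41% of all genes were higher and 2.32% lower, against no member higher and 1 member (Evpl) lower.

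The median log2 ratio of the 28 genes was 0.054, against -0.042 over all genes measured. The ratio was above 0 for 19 of the 28, and for 44.9% of all genes measured. This count depends on the scaling, with 16 of 28 above 0 after quantile normalisation or lowess and 6 of 28 when ratios were centred on the median of the pan-epithelial markers. The median ratio of the 28 genes without regard to sign was 0.095, against 0.23 over all genes measured. Brighter probe sets vary less, so the same was taken for genes with a geometric mean signal of at least 1000. There the 21 junction genes had a median unsigned ratio of 0.076 and none reached 1.5-fold, while the 4462 genes of that brightness had 0.19 and 7.55% of them reached 1.5-fold in either direction. Of the 28 junction genes, 21 lay within 1 SD of the probe error, as did 58.0% of all genes measured. These shares describe the 2 arrays, and the spread between mice behind them is unknown.

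**Figure D1:**
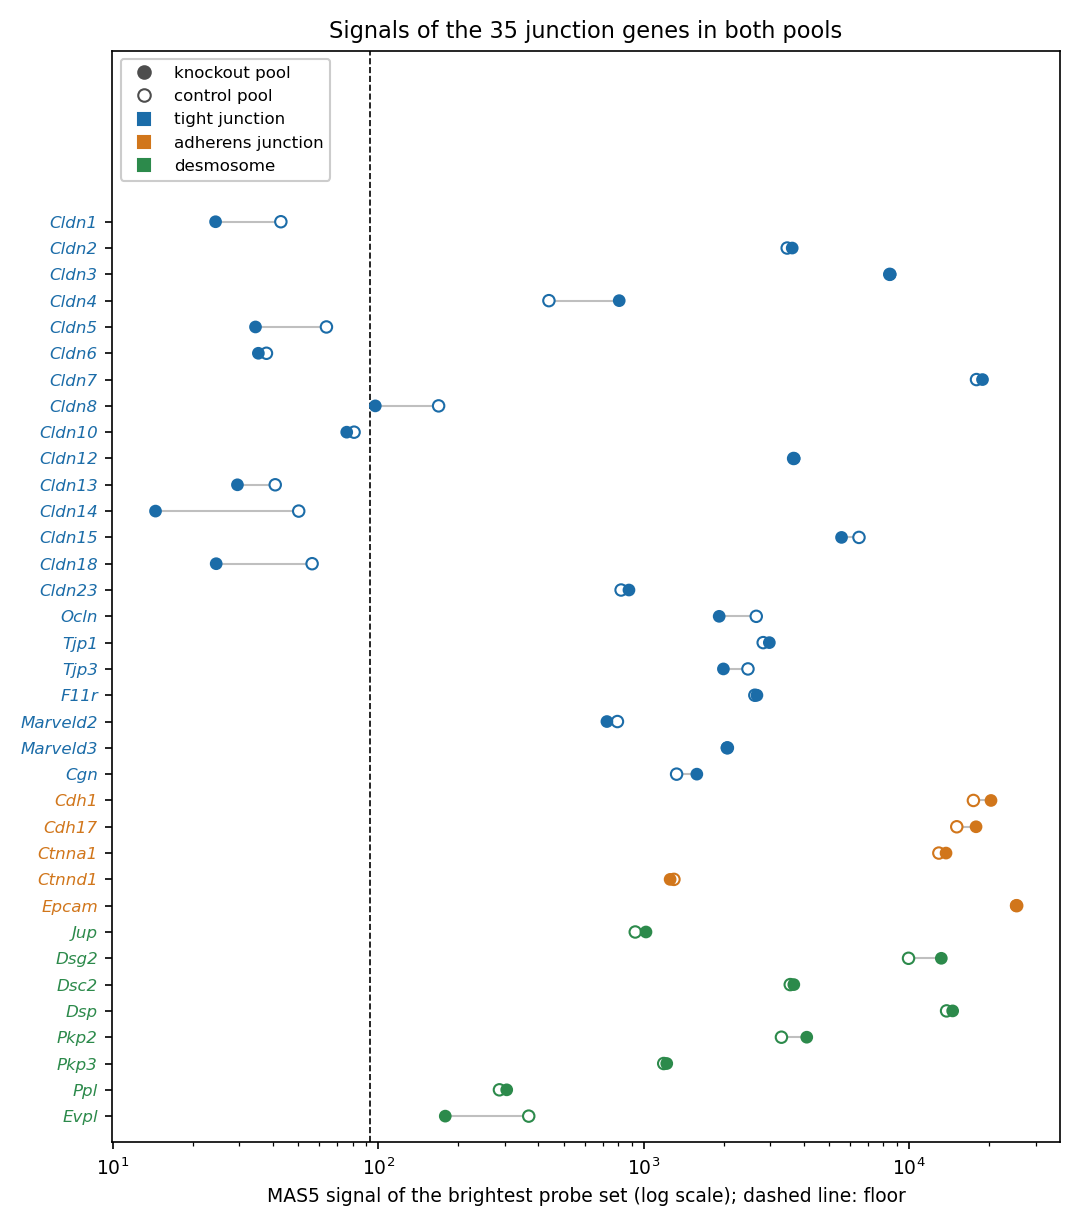
MAS5 signal of the brightest probe set (horizontal log axis) for the 35 junction genes, filled circles for the knockout pool and open circles for the control pool, with a dashed line at the floor of 92.9. The 2 circles nearly coincide for most genes above the floor and separate for Cldn4, Cldn8 and Evpl; probe sets of different genes bind with different strength, so levels are to be read within a row.

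Claudins are 4-pass membrane proteins that form the strands of the tight junction and set its charge and size selectivity. Of 15 claudin genes, 8 exceeded the floor in both pools, with a median log2 ratio of 0.035. Cldn4 had a signal of 809 in the knockout pool and 439 in the control pool. Its log2 ratio of 0.88 is 2.70 SDs of the probe error of genes below a signal of 1000 and the highest of the 28 genes. Beyond 2 SDs of the probe error of 0.28 lay 3 of the 28 genes and 1714 of all 11496 genes measured, so ratios this far out are common. Cldn4 and Cldn3 are neighbours on chromosome 5, with 0 protein-coding genes between them in the RefSeq gene table. Cldn3 encodes another sealing claudin, and its signal was 8475 in the knockout pool and 8450 in the control pool, a log2 ratio of 0.0042. The other 3 probe sets of Cldn3 gave -0.12, 0.11 and 0.20. The ratios of these neighbours were unlike, where the difference between 2 probe sets of 1 gene had an SD of 0.395. Cldn4 had the highest of the 28 ratios, by 1 probe set, so a gap to a gene near 0 follows from that choice. It is not a result about neighbouring genes.

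The 250 bases before the transcription start of Cldn4 and Cldn3 are shown because these neighbours had unlike ratios, and those of Ocln because it had the lowest ratio among members read by several probe sets. The sequences are from RefSeq on GRCm38.p6, on the strand of the gene, and for Ocln before the outermost of its starts. They lie at chr5:134946935-134947184 (Cldn4, minus strand), chr5:134985964-134986213 (Cldn3, plus strand) and chr13:100552719-100552968 (Ocln, minus strand). Capitals mark matches to the motifs named after the sequences.
Cldn4: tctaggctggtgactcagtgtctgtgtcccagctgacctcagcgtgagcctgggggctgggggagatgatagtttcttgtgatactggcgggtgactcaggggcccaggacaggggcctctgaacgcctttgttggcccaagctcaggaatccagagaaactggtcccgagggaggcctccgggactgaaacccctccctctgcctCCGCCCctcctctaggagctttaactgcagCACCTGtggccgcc
Cldn3: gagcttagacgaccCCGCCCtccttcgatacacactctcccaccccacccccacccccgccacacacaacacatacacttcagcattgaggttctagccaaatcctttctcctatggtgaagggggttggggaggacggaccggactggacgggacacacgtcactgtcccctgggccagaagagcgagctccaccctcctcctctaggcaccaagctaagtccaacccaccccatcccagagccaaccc
Ocln: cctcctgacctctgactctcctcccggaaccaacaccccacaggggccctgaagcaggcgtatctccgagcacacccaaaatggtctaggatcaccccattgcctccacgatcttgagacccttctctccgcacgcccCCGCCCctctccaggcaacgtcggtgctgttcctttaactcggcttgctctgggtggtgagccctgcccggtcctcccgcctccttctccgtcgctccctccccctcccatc

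The motifs searched, on both strands, were the TATA box (TATAAA), the CCAAT box (CCAAT), the GC box (GGGCGG), the E-box bound by Snail and ZEB repressors (CAGGTG) and the grainyhead-like site (AACNGGTT). Each of the 3 windows held 1 GC box match, and none of the 3 held a TATA box, CCAAT box or grainyhead-like match. The Cldn4 window also held 1 E-box match, 14 to 9 bases before the start. Among 32851 windows of the same length, 32.7% held the GC box, 17.2% the E-box, 33.8% the CCAAT box, 12.4% the TATA box and 1.8% the grainyhead-like site. Of 33 windows of the junction genes, 60.6% held the GC box, 27.3% the E-box and 42.4% the CCAAT box. The TATA box was in 12.1% of these 33 windows and the grainyhead-like site in 6.1%. The difference between these shares was not tested. The windows were rich in G and C, at 62.0% for Cldn4, 60.8% for Cldn3 and 64.0% for Ocln, against a median of 52.4% over all windows. A match is a run of letters and not a measured binding site. Of the 35 genes, 22 had a window in the table.

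Claudins that form ion pores were near equal in both pools. Cldn2, which makes a cation and water channel and is known from crypts, had 3626 in the knockout pool and 3471 in the control pool (log2 ratio 0.063), and 0.30 by its dimmer probe set. Cldn15, the sodium pore claudin of the small intestine, had 5562 in the knockout pool and 6471 in the control pool, a log2 ratio of -0.22 that lies within the probe error. Cldn12, linked to calcium passage, had 3689 in the knockout pool and 3670 in the control pool, and its probe sets gave 0.0074 and 0.013. None of these 3 pore or permeability genes differed by more than 1 SD of the probe error by its brightest probe set.

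Cldn7, which binds Epcam at the lateral membrane, had 18892 in the knockout pool and 17933 in the control pool (0.075). Cldn23 had 880 in the knockout pool and 822 in the control pool (0.099). Cldn8, known from the distal bowel and kidney, had 97.5 in the knockout pool and 169 in the control pool (-0.79). Its knockout signal stood just above the floor, and with the floor at the 70th percentile (318) it could not be compared.

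The remaining 7 claudin genes were not above the floor in either pool and have no ratio. Cldn1, an epidermal barrier claudin, had 24.4 in the knockout pool and 43.0 in the control pool. Cldn5, the claudin of blood vessel endothelium, had 34.5 in the knockout pool and 63.8 in the control pool. Cldn6, an embryonic claudin, had 35.3 in the knockout pool and 37.9 in the control pool. Cldn10, known from the kidney, had 76.1 in the knockout pool and 81.1 in the control pool. Cldn13, a claudin of rodents, had 29.5 in the knockout pool and 40.9 in the control pool. Cldn14, known from the inner ear and kidney, had 14.5 in the knockout pool and 50.2 in the control pool. Cldn18, of stomach and lung, had 24.5 in the knockout pool and 56.3 in the control pool. Signals this low were not read as an order between the pools.

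The MARVEL proteins occludin, tricellulin and Marveld3 stabilise strands and the corners where 3 cells meet. Ocln, the occludin gene, had 1924 in the knockout pool and 2654 in the control pool, 1.38-fold lower (log2 ratio -0.46). Its other probe set had 1562 in the knockout pool and 2376 in the control pool (-0.61), so both probe sets were lower and the dimmer passed 1.5-fold. The ratio of its brightest probe set is 1.66 SDs of the probe error. Marveld2, which encodes tricellulin, had 727 in the knockout pool and 796 in the control pool (-0.13). Marveld3 had 2061 in the knockout pool and 2066 in the control pool (-0.0041), and its dimmer probe set gave 0.37.

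Among tight junction scaffolds, Tjp1, which encodes ZO-1, had 2973 in the knockout pool and 2819 in the control pool (0.077). Tjp3, which encodes ZO-3, had 1996 in the knockout pool and 2470 in the control pool (-0.31, 1.24-fold lower). Cgn, the gene of the actin- and myosin-binding plaque protein cingulin, had 1585 in the knockout pool and 1330 in the control pool (0.25, and 0.034 by its dimmer probe set). F11r, which encodes the adhesion molecule JAM-A, had 2670 in the knockout pool and 2622 in the control pool (0.026). Its dimmer probe set, above the floor in the control pool only, was at least 1.14-fold lower. These 4 genes went both ways, and only Tjp3 passed 1 SD of the probe error.

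**Figure D2:**
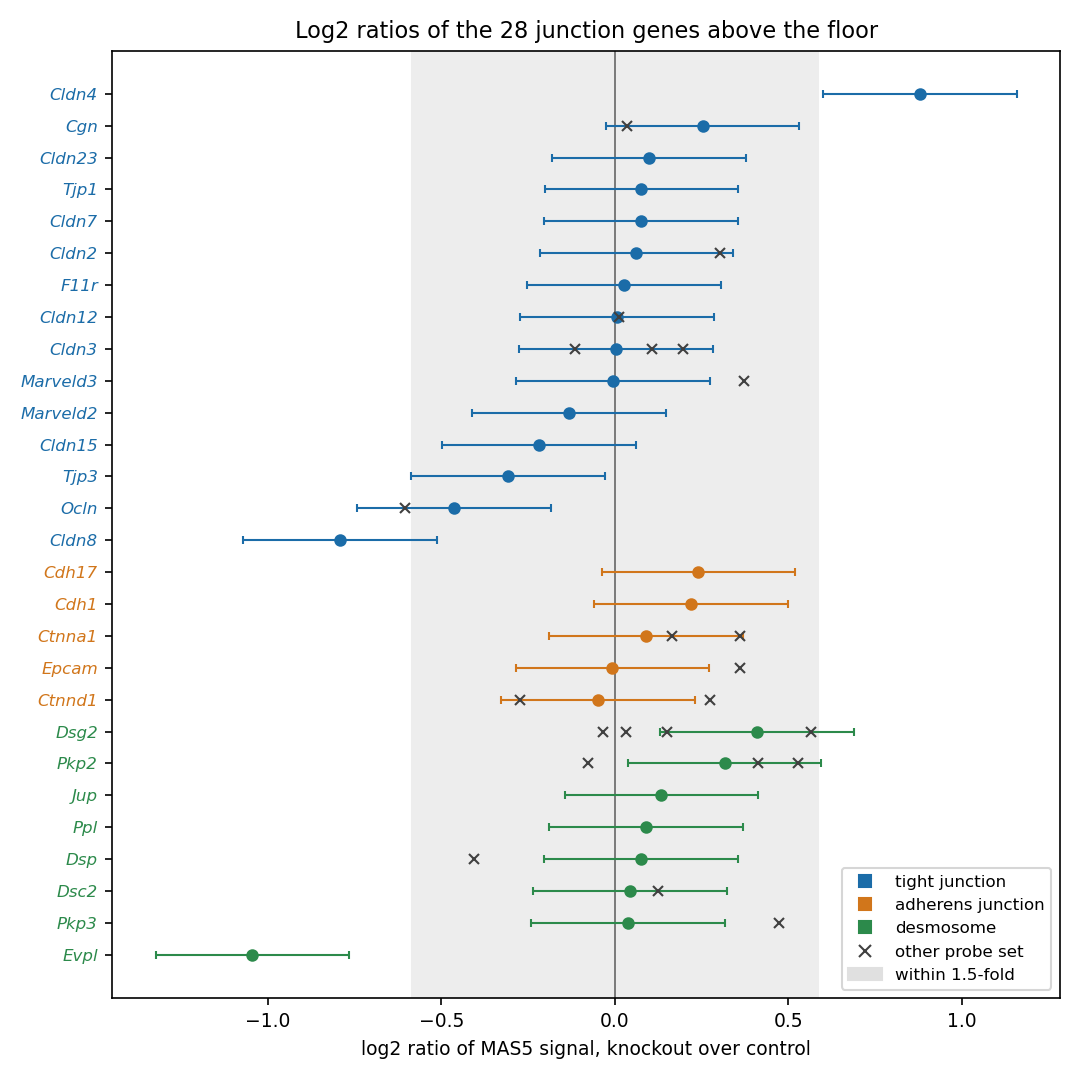
Log2 ratio of MAS5 signal, knockout over control (horizontal axis), for the 28 junction genes above the floor, with circles for the brightest probe set, bars of 1 SD of the probe error (0.28) and crosses for other probe sets that exceeded the floor in both pools. Cldn4 stands to the right of the grey 1.5-fold band and Cldn8 and Evpl to its left, while probe sets of Dsg2, Pkp2, Ctnnd1 and Dsp lie on both sides of zero.

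All 5 adherens junction and lateral adhesion genes were within 1 SD of the probe error, with a median log2 ratio of 0.090. Cdh1, which encodes E-cadherin, had 20338 in the knockout pool and 17459 in the control pool (0.22). Cdh17, the gene of the intestinal cadherin LI-cadherin, had 17864 in the knockout pool and 15111 in the control pool (0.24). Both cadherin genes were 1.16- to 1.18-fold higher. Ctnna1, which encodes the actin-linking alpha-catenin, had 13768 in the knockout pool and 12937 in the control pool (0.090), and 0.17 and 0.36 by its other probe sets above the floor. Ctnnd1, the gene of p120-catenin, which keeps cadherin at the surface, had 1257 in the knockout pool and 1300 in the control pool (-0.048), with other probe sets at -0.27 and 0.28. Epcam, an epithelial adhesion protein that steadies claudins, had 25300 in the knockout pool and 25413 in the control pool (-0.0064), and 0.36 by a dimmer probe set.

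Desmosomes had 8 genes above the floor, with a median log2 ratio of 0.084. The ratio was above 0 for 7 of the 8, none of which passed 1.5-fold, and for 2 of the 8 (Dsg2 and Pkp2) when ratios were centred on the pan-epithelial markers. Dsg2, the desmoglein of simple epithelia, had 13215 in the knockout pool and 9945 in the control pool, a log2 ratio of 0.41 (1.33-fold higher). The other 4 probe sets of Dsg2 that exceeded the floor in both pools gave 0.15, 0.032, -0.035 and 0.57, and another, above the floor in the control pool only, was at least 1.64-fold lower. The median over its probe sets was 0.092, so the probe sets of Dsg2 did not settle a direction. Dsc2, its partner desmocollin, had 3677 in the knockout pool and 3565 in the control pool (0.045).

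Pkp2, a plakophilin of the desmosomal plaque, had 4113 in the knockout pool and 3302 in the control pool (0.32), and its other probe sets gave 0.41, -0.076 and 0.53. The brightest and the probe sets at 0.41 and 0.53 were thus higher by more than 1 SD of the probe error. Pkp3, another plakophilin, had 1221 in the knockout pool and 1189 in the control pool (0.038, and 0.47 by its dimmer probe set). Jup, which encodes plakoglobin, shared by desmosomes and adherens junctions, had 1020 in the knockout pool and 929 in the control pool (0.13).

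The plakins link this plaque to keratin. Dsp, the gene of desmoplakin, had 14583 in the knockout pool and 13833 in the control pool (0.076), but 9596 in the knockout pool and 12722 in the control pool by its next probe set (-0.41). Ppl, the gene of periplakin, had 305 in the knockout pool and 286 in the control pool (0.091). Evpl encodes envoplakin, which in stratified epithelia pairs with periplakin. It had 179 in the knockout pool and 369 in the control pool, a log2 ratio of -1.04 and the lowest of the 28 genes. This is 3.21 SDs of the probe error of genes below a signal of 1000. Of all 11496 genes measured, 1714 lay beyond 2 SDs of the probe error of 0.28. With the floor at the 70th percentile (318) the ratio of Evpl was -0.22 and the gene no longer passed 1.5-fold. Periplakin and envoplakin transcripts thus differed in ratio, by single dim probe sets.

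The classes were compared by their medians and ranges, without a test. The median log2 ratio was 0.0074 for tight junction genes (15 genes, -0.79 to 0.88), 0.090 for adherens junction genes (5 genes, -0.048 to 0.24) and 0.084 for desmosome genes (8 genes, -1.04 to 0.41). Within tight junctions the 8 claudins had a median of 0.035 and the other 7 genes -0.0041. The sign of all 3 medians turned when ratios were set against epithelial marker genes (-0.13, -0.047 and -0.054). The tight junction median was also negative after quantile normalisation (-0.019), after lowess (-0.016) and by use of a pseudocount (-0.035). A lower floor (30th percentile) or none gave -0.097. Under the other planned settings this median was 0.0074 to 0.056, so its sign was not stable. The adherens junction and desmosome medians stayed positive under every planned setting.

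By probe set, the 28 genes had 51 probe sets that exceeded the floor in both pools, 36 with a ratio above 0 and 15 below, with a median of 0.076. Of these, 1 passed 1.5-fold upward (Cldn4) and 3 passed it downward (Cldn8, Evpl and the dimmer one of Ocln). By brightest probe set, 4.76% of all genes measured passed it upward and 8.74% downward. Shares over all probe sets of the array were not taken. Of 14 genes with at least 2 such probe sets, the 2 brightest had the same sign in 11 and opposite signs in 3. The brightest probe sets of Ctnna1, Ctnnd1, Jup and Pkp2 are of a kind that can bind transcripts of related genes (_s_at or _x_at).

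**Figure D3:**
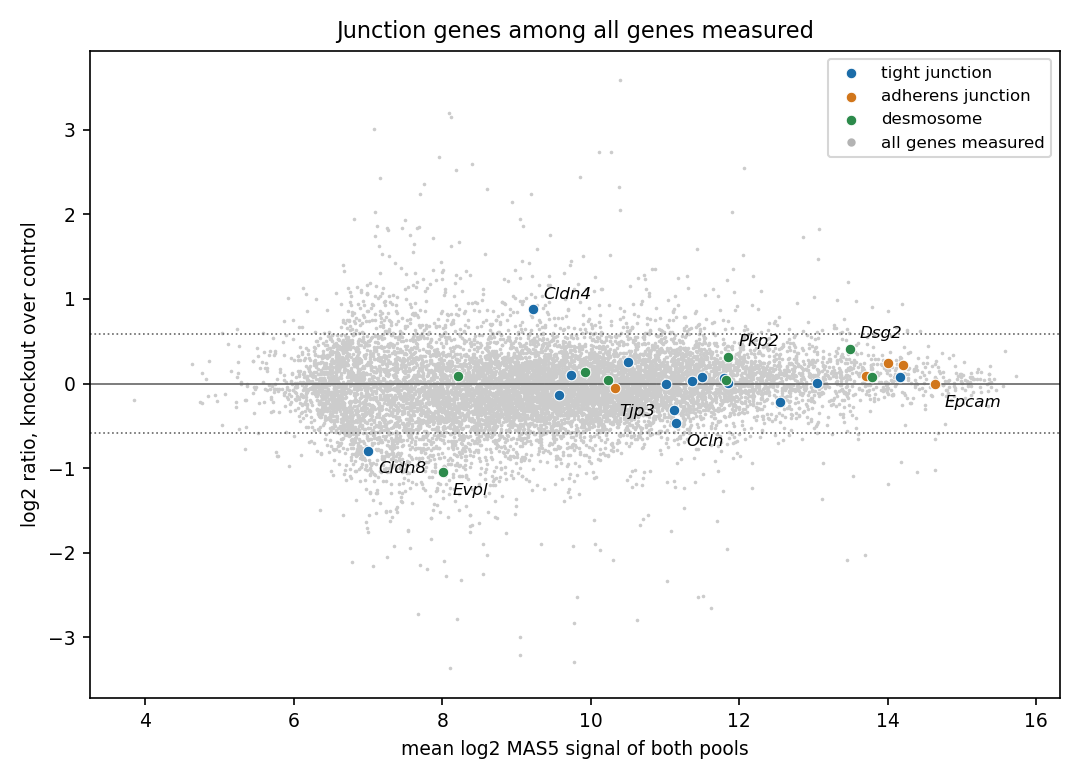
Log2 ratio, knockout over control (vertical axis), against the mean log2 MAS5 signal of both pools (horizontal axis) for all 11496 genes measured (grey) and the 28 junction genes (coloured by class), with dotted lines at 1.5-fold. The junction genes hug the zero line, most clearly at high signal, and the 3 outside the dotted lines have lower signals than most members.

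A further 78 junction genes outside the 35 were read on 4 lists. Of these, 47 exceeded the floor in either pool, with a median log2 ratio of -0.022. Of the 47, 1 passed 1.5-fold upward and none downward, against 4.76% and 8.74% of all genes measured. Their median unsigned ratio was 0.17, between 0.095 for the 28 junction genes and 0.23 over all genes measured. On the tight junction list 19 of 30 were measured (median -0.095). The 1 gene past 1.5-fold was Igsf5, which encodes the junction adhesion molecule JAM4, with 3239 in the knockout pool and 1873 in the control pool (1.73-fold higher, 1 probe set).

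Several polarity genes of that list had probe sets that went the same way. Crb3, the small transmembrane protein of the Crumbs complex, was at 0.47, 0.35 and 0.36 by its 3 probe sets. Pard6b, an adaptor of the Par complex, was at 0.47 and 0.51. Pard3, the scaffold of the Par complex, was at -0.39, -0.29 and -0.34, and Magi3, another scaffold, at -0.36 and -0.55. None of these 4 genes reached 1.5-fold by any of the probe sets named. Cxadr, an adhesion receptor also used by coxsackieviruses, had probe sets on both sides of zero, at -0.32 (the brightest), 0.63 and 0.16.

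The adherens junction list had 14 of 20 genes measured, a median of 0.065 and none past 1.5-fold. Ctnnb1, the gene of beta-catenin, which joins E-cadherin to alpha-catenin and also carries the Wnt signal, had 22070 in the knockout pool and 22830 in the control pool (-0.049, and -0.25 and -0.20 by its other probe sets). The highest were Nectin1 (at least 1.28-fold higher), Ctnnal1 (0.29, and at least 1.34-fold lower by a dimmer probe set above the floor in the control pool only) and Nectin3 (0.20), and the lowest Ssx2ip (-0.29, and 0.092 by another probe set), Afdn (-0.17) and Adam10 (-0.063). A dimmer Adam10 probe set, above the floor in the knockout pool only, was at least 1.26-fold higher. Nectins and afadin, the product of Afdn, form a second adhesion system at this junction. On the desmosome list 2 of 8 were measured, the plakophilin gene Pkp1 (-0.42) and Perp (0.22), a 4-pass desmosomal membrane protein.

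Of the 20 regulators of epithelial junctions, 12 were measured, with a median of -0.032 and none past 1.5-fold. St14, which encodes the membrane protease matriptase, was at 0.38, and Spint1, which encodes its inhibitor HAI-1, at 0.37. Ovol2, an epithelial transcription factor, was at 0.15. The lowest were Zeb2, a repressor of E-cadherin (at least 1.30-fold lower), Cdx2, the intestinal identity factor (-0.16), and Rock1, a kinase that drives actomyosin contraction (-0.14). The repressor genes Snai1, Snai2, Zeb1 and Twist1 were below the floor in both pools.

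Marker genes of cell types were read beside these results, since fewer cells of a type and less RNA per cell cannot be told apart in pooled tissue. All 7 pan-epithelial markers were above the floor in both pools, with a median of 0.14 and none past 1.5-fold. The ratio was above 0 for 4 of them, the keratin genes Krt8 (0.17) and Krt19 (0.19), the lectin gene Lgals4 (0.14) and Vil1 (0.24), and below 0 for 3, Cdx1 (-0.43), Elf3 (-0.15) and Krt18 (-0.046). Their summed signal was 139162 in the knockout pool and 126141 in the control pool.

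Markers of lymphocytes, stem cells and enterocytes had medians farther from zero than any junction class. So did the 3 measured stratified squamous markers (0.67) and the 3 measured stromal and muscle markers (0.32, the bound of Col1a2). The pan-epithelial markers (0.14) and the 3 measured endothelial markers (-0.10) did so by little, so every marker list met this contrast. All these lists were chosen with earlier results of these data known. All 9 markers of intraepithelial T and natural killer cells were at least 2-fold lower (median -2.10), with summed signals of 8591 in the knockout pool and 38292 in the control pool. All 7 crypt base stem cell markers were lower (median -0.76), 5 of them by at least 1.5-fold, and Lgr5 had 171 in the knockout pool and 814 in the control pool. Their summed signals were 25180 in the knockout pool and 38664 in the control pool. Of 7 villus enterocyte markers measured, the ratio was above 0 for 5 and below 0 for 2, with a median of 0.38. Past 1.5-fold were Alpi (1.54-fold higher) and Lct (2.57-fold lower). Fabp1 was at 0.38, and at 0.73 by its dimmer probe set. The sums of these 7 markers were 183815 in the knockout pool and 160481 in the control pool. The part of these cells in the ratios of junction genes was not tested.

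Few markers of other cell types that carry claudins or plakins were above the floor. The sums given here run over all 8 genes of a list, those below the floor included, and were not read as an order between the pools. Endothelial markers were above the floor for 3 of 8 genes (sums over all 8 of 597 in the knockout pool and 628 in the control pool). Esam had 188 in the knockout pool and 218 in the control pool, and Eng had 176 in the knockout pool and 150 in the control pool. Kdr was above the floor in the control pool only. The other 5, Pecam1 and Cdh5 among them, were below the floor in both pools. Stromal and muscle markers were above it for 3 of 8 (sums over all 8 of 549 in the knockout pool and 458 in the control pool). Acta2 had 203 in the knockout pool and 120 in the control pool (1.69-fold higher). Des was at least 1.62-fold lower and Col1a2 at least 1.25-fold higher. The other 5, Col1a1 and Myh11 among them, were below the floor in both pools. Stratified squamous markers, given because envoplakin and periplakin are abundant in such epithelia, were above the floor for 3 of 8. Their sums over all 8 were 1085 in the knockout pool and 482 in the control pool. Sprr1a had 628 in the knockout pool and 98.4 in the control pool. Krt5, a basal keratin gene, had 186 in the knockout pool and 117 in the control pool (1.59-fold higher). Krt6a was above the floor in the control pool only (at least 1.27-fold lower), and Krt14, Krt13, Krt4, Trp63 and Krtdap were below the floor in both pools.

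**Figure D4:**
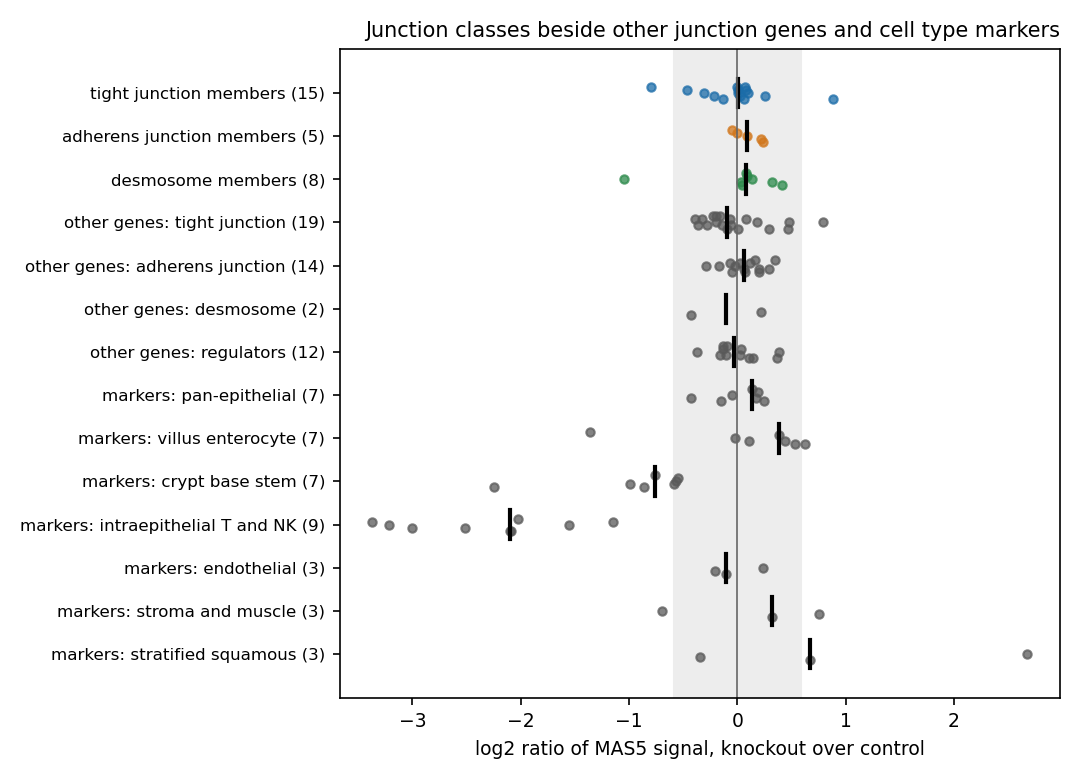
Log2 ratio of MAS5 signal, knockout over control (horizontal axis), for each gene of the 3 junction classes, the 4 lists of other junction genes and the 7 lists of cell type markers, with the number measured in brackets, a black bar at the median and a grey 1.5-fold band; genes above the floor on 1 array only are drawn at their bound. Junction medians lie between -0.10 and 0.090, whereas those of crypt base stem cell markers (-0.76) and T and natural killer cell markers (-2.10) lie to the left of the band. The median of the 3 measured stratified squamous markers (0.67) lies to its right. The lists were chosen with earlier results of these data known.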

How the data were processed

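The data are 1 table with 2 Affymetrix arrays (45101 probe sets each), 1 for the knockout and 1 for the control pool; the submitters' design text names a smaller version of the array than this number of probe sets belongs to. The authors deposited linear signal intensities, computed by MAS5 according to the submitters' processing notes, without a stated version or detection calls. Each column had a 2%-trimmed mean of 500, and values were used as deposited. After setting aside 64 control probe sets, 34945 probe sets had 1 gene symbol and were used (932 had several, 9160 none here), and 34741 of them took their present symbol from RefSeq (GRCm38.p6) by Entrez identifier.

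Each gene took its probe set of highest mean log2 signal. Signals below the 50th percentile over non-control probe sets (92.9) were raised to it before the log2 ratio, knockout over control, was taken. A gene above this floor on 1 array has a bound ("at least"). A 1.5-fold difference marks a gene as higher or lower. The probe error is the SD of the difference between the ratios of a gene's 2 brightest probe sets that exceed the floor in both pools, divided by the square root of 2. The number of arrays limits the precision. The gene step was tested on simulated data. Alternatives changed the floor, pseudocount, scaling, probe set, bright members and class membership.

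The 35 genes and all lists were chosen with earlier results of these data known. All 35 genes may be named. Of the other junction lists, genes past 1.5-fold, the 3 highest and 3 lowest measured and Ctnnb1 are named. Of the marker lists, only some of the 3 brightest and of those past 2-fold are named. Other genes named, such as those below the floor, were picked after their values were seen. Of the 78 other junction genes, 7 were not analysed here because no probe set with 1 symbol names them. Python 3.11.15, pandas 2.3.3 and statsmodels 0.14.6 were used.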

Additional observations from a re-analysis of the deposited data

How the results depend on the processing

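No paired analysis was possible because there is a single array for each genotype, which also means that leaving out an array was not possible. Cldn4 was the 1 member at least 1.5-fold higher under each of the 10 planned settings for floor, scaling and probe sets (0.76 to 0.94). With 1 probe set and signals above each floor used, its ratio could change only with the pseudocount (0.76) or the scaling (0.92 to 0.94). The settings for floor, probe sets and bright members therefore say nothing about how stable this ratio is. The count at least 1.5-fold lower was 2 as reported, 4 with the floor at the 30th percentile, 0 at the 70th, 1 with a pseudocount equal to the floor and 6 with no floor. The genes added are claudins below the main floor: Cldn5 and Cldn18 at the 30th percentile, and also Cldn1 and Cldn14 with no floor. Evpl was at -0.22 at the 70th percentile, which raises its signals to 318, and at -0.77 with the pseudocount, where Cldn8 was at -0.46. The tight junction median moved to -0.097 at the 30th percentile and with no floor, because the dim claudins enter. Its difference from the desmosome median (-0.076) was then -0.18, and -0.15 after quantile normalisation and -0.14 after lowess. The median of other junction genes (-0.022) was 0.024 at the 70th percentile and -0.063 with no floor. Centring on the pan-epithelial markers, an alternative chosen after seeing the data, put the median of all genes measured at -0.18, against -0.042 as deposited. It gave -0.083 for all junction members, -0.13, -0.047 and -0.054 for tight junction, adherens junction and desmosome genes and -0.16 for other junction genes, and put Ocln at -0.60. Counting Jup as an adherens junction gene gave medians of 0.11 for that class and 0.076 for desmosomes, and leaving out Epcam or Cdh17 put the adherens junction median at 0.16 or 0.042.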
